A study of Mus musculus with 50 samples.

Results

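Cav1, Gpihbp1, Igfbp3, Kcne3, Sparcl1, Adm, Upp1 and Robo4 are 8 genes that had been picked by name from earlier results of these same cells, as endothelial genes thought to run against cell division. They are 8 of the 11879 gene rows measured. Each was examined in 50 single iRunx1-iHECs, hemogenic endothelial cells derived in culture from mouse embryonic stem cells of the C57BL/6 strain. The study's methods describe a Runx1 cassette in the Rosa26 locus that doxycycline switches on, with doxycycline added during differentiation before the sort. Cells were sorted as CD31+CD41lowCD45-c-kit+CD201high, and there was no uninduced or second group. The labels give 1 line and no culture, so the cells are 1 sample without replicates and no test was made. Values of the 8 genes and of Ube2c and Ccnb1 chose the genes, so what follows describes these cells and is not independent support for the choice.

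Endothelial cells line blood vessels and, for a short time in the embryo, some of them (hemogenic endothelium) turn into blood cells. As this happens, genes of vessel walls are turned down and genes of blood are turned up. Several of the 8 genes encode proteins at the surface of endothelial cells or proteins secreted by them. Ube2c is the ubiquitin-conjugating enzyme of the anaphase-promoting complex, and Ccnb1 is cyclin B1, which drives entry into mitosis. RNA of both is highest in late cell division.

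The main result was that the 8 genes went together from cell to cell, while their correlations with Ube2c and Ccnb1 were weak. Spearman's rho (a rank correlation) of TPM was positive in 28 of 28 pairs of the 8 genes, with a median of 0.37. Among the pairs of 9096 other genes 61.5% were above 0, with a median of 0.04. Against Ube2c and Ccnb1 the median rho over the 16 pairings was -0.07, with a range from -0.24 to 0.10. The first number in a cell's title is not explained by the labels, and the median ran from -0.11 to -0.0036 when the cells of 1 such number were left out in turn, nearest to 0 without number 2. Against the mean log2(TPM + 1) of 35 other genes of G2 and mitosis all 8 were below 0, from -0.29 (Gpihbp1) to -0.10 (Igfbp3). The values for Ube2c and Ccnb1 did not show the opposition that the choice assumed, and those for the other genes were negative but weak, so the 8 are called only endothelial genes. TPM (transcript abundance scaled for length and to a common total) was taken as expressed above 1.

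The 8 genes differed widely in how many cells had them. Kcne3, a regulatory subunit of potassium channels, and Upp1, the uridine phosphorylase of pyrimidine salvage, were each above TPM 1 in 48 of 50 cells (96%, exact 95% interval 86.3% to 99.5%). Gpihbp1, which holds lipoprotein lipase on capillary endothelium, was above TPM 1 in 47 cells (94%, 83.5% to 98.7%). Robo4, the endothelial member of the Roundabout receptors, was so in 39 cells (78%, 64.0% to 88.5%), and Cav1, the scaffold protein of caveolae, in 38 (76%, 61.8% to 86.9%). The counts were lower for Igfbp3, a secreted binding protein for insulin-like growth factors, with 34 cells (68%, 53.3% to 80.5%), and for the vasodilator peptide adrenomedullin (Adm), with 26 (52%, 37.4% to 66.3%). Sparcl1, a secreted matrix protein of the SPARC family, was the least frequent with 18 cells (36%, 22.9% to 50.8%). The intervals cover counting error over cells only. Each overlapped that of the next gene in this order, so they mark no separate groups of genes.

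Levels spanned orders of magnitude within a gene. Kcne3 ran from 0.64 TPM through a median of 192 to 8861 TPM in cell 3-11, where the numbers are those of the cell's title. Its second highest cell had 4282 TPM, and 13 cells were above 1000 TPM. Gpihbp1 ran from 0 through a median of 164 to 3936 TPM in cell 4-2. Upp1 had the highest median, 270 TPM, with a range from 0 to 2272 TPM, and 37 cells were above 100 TPM. Upp1 also had a smaller spread than those of Kcne3 and Gpihbp1, with an SD of log2(TPM + 1) of 2.84 over cells, against 3.95 and 3.42.

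Cav1 and Igfbp3 were at or below TPM 1 in more cells than these 3 genes. Cav1 was at or below TPM 1 in 12 cells, between 1 and 10 in 10, and above 100 in 21, with a median of 34.3 and a highest value of 1625 TPM. Igfbp3 had a median of only 3.48 TPM, and 15 cells had values between 1 and 10 TPM. Its 2 highest cells nevertheless reached 5220 and 4808 TPM. Among the 5892 genes above TPM 1 in 20% to 80% of cells, Igfbp3 had the second largest SD of log2(TPM + 1), 3.9, and Cav1 ranked 8 with 3.68. These are values that brought the genes to notice and add no evidence of their own.

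Sparcl1 and Adm were each listed at 0 in 22 cells. Where Sparcl1 was above TPM 1 it was never between 1 and 10, and the median of these 18 cells was 78.8 TPM. The highest cell had 550 TPM. Adm reached 720 TPM and its 26 cells had a median of 72.6 TPM. Robo4 was the evenest of the 8, with an SD of log2(TPM + 1) of 2.55, a median of 29 TPM and a highest value of 312 TPM, and 27 cells lay between 10 and 100 TPM. Depth cannot be read from TPM, so a value of 0 is given only as listed at 0.

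**Figure D1:**
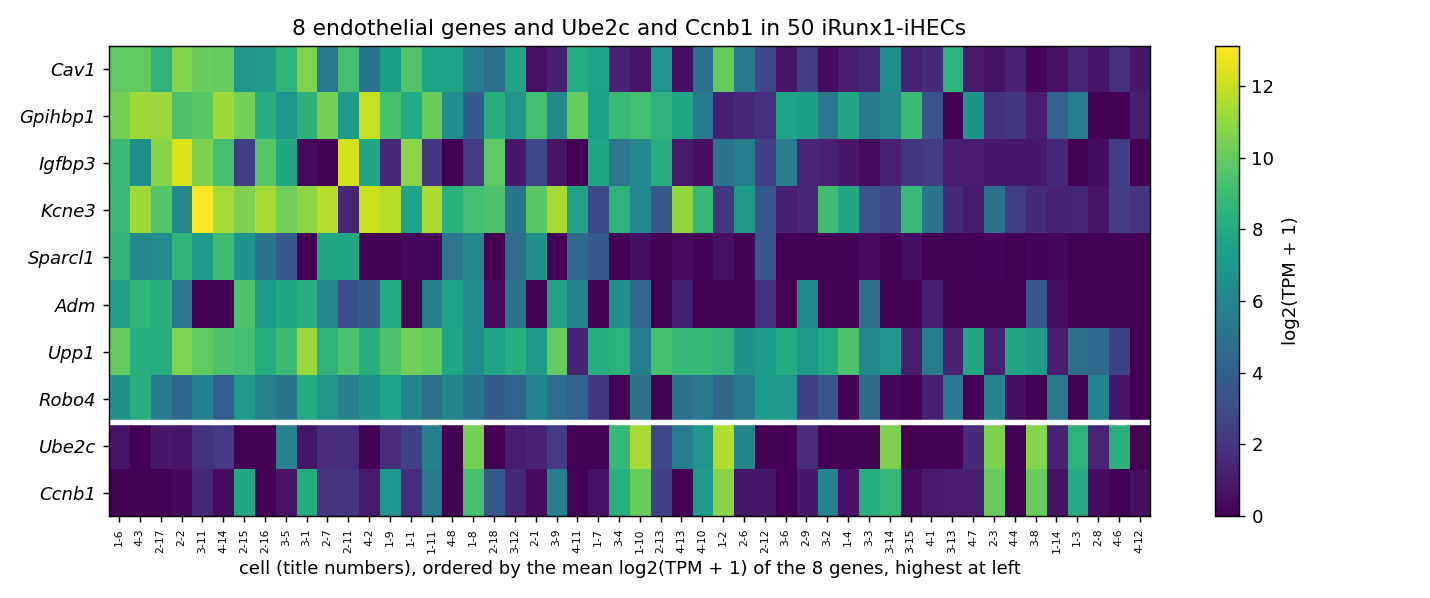
Heat map of log2(TPM + 1) for the 8 endothelial genes (upper rows) and Ube2c and Ccnb1 (lower rows) in each of 50 cells, ordered by the mean of the 8 genes from high at left to low at right. Bright values of the 8 genes gather at left, while the 9 cells with both Ube2c and Ccnb1 above 100 TPM are spread over the middle and right.

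In the genome the 8 genes are scattered over 6 chromosomes of GRCm38, the assembly that mm10 names. Cav1 lies on chromosome 6 (17306335 to 17341452), Gpihbp1 on chromosome 15 (75596628 to 75599481), Sparcl1 on chromosome 5 (104079111 to 104113733) and Robo4 on chromosome 9 (37401897 to 37415115). Igfbp3 (7206086 to 7213923, minus strand) and Upp1 (9118103 to 9136170) are both on chromosome 11, 1.9 Mb apart, and their rho was 0.37. Kcne3 (100176502 to 100184869) and Adm (110627661 to 110629820) share chromosome 7, 10.4 Mb apart, with a rho of 0.48. All 8 are annotated as protein-coding.

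Promoters were compared because genes of late cell division often share a CCAAT box, bound by the factor NF-Y, and a TTTGAA or TTTAAA element, whereas endothelial genes are often bound by ETS factors at GGAA. The 250 bases before each RefSeq gene start (GRCm38.p6) were searched on both strands. The table held 10 starts for 6 of the 8 genes and none for Gpihbp1 and Sparcl1. The Ube2c window held 6 matches to CCAAT and 1 to TTTGAA or TTTAAA, and the Ccnb1 window held 2 and 1. Matches to CCAAT on opposite strands can overlap. Both of these windows and those of the 3 endothelial genes with a single listed start are printed, to set the division promoters beside the others. Capitals mark the matches to these division motifs on either strand in Ube2c (chr2:164769679-164769928, plus strand) and Ccnb1 (chr13:100786487-100786736, minus strand). They mark GGAA on either strand in Igfbp3 (chr11:7213924-7214173, minus strand), Adm (chr7:110627407-110627656, plus strand) and Robo4 (chr9:37401722-37401971, plus strand).
Ube2c: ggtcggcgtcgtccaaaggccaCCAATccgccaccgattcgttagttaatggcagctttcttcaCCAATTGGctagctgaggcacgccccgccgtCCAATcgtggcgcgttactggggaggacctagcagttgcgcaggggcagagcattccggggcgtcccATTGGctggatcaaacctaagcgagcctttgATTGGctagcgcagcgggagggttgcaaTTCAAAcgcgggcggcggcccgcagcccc
Ccnb1: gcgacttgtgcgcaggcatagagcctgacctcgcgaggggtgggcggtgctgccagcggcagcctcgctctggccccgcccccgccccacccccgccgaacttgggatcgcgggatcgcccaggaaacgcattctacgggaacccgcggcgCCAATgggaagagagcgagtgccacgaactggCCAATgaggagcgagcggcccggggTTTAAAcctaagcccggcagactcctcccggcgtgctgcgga
Igfbp3: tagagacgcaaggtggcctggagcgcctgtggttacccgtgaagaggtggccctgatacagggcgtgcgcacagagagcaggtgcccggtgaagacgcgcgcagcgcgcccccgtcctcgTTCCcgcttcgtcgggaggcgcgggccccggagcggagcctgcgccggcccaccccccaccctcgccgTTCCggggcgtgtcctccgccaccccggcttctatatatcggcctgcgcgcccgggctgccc
Adm: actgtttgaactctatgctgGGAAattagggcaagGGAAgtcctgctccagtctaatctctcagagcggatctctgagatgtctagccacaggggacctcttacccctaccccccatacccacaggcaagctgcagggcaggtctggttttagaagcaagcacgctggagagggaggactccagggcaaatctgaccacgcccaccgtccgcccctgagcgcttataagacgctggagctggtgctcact
Robo4: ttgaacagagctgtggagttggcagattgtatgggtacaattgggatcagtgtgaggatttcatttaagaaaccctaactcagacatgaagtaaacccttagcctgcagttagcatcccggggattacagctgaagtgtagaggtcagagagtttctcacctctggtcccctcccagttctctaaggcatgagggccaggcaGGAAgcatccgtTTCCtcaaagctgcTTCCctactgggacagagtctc

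CCAAT was found in 2 of the 10 windows of the endothelial genes, 1 each for Kcne3 and Robo4, and in 33.8% of all 32851 windows of that length. TTTGAA or TTTAAA was found in 1 of the 10 (Adm), and in 25.2% of all windows. GGAA was in 10 of 10, but also in 93.4% of all windows, so its presence tells little. ACGTG, the core of the hypoxia response element, was in 2 of 10 (Cav1 and Kcne3) and in 16.6% of all. TGACTCA or TGAGTCA, the site of AP-1, was in 2 overlapping windows of Upp1 and in 4.46% of all. GGGCGG, bound by Sp1, was in 5 of 10 and in 32.7% of all. A match describes letters only, and windows of the same gene can overlap. The GENCODE starts of Robo4, Ube2c and Ccnb1 lie inside their windows, and that of Kcne3 inside the first of its windows, which holds its CCAAT and ACGTG matches.

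Co-expression was then described for all 28 pairs. The rank correlation was 0.3 or more in 22 pairs, and 4.47% of the 41364060 pairs among the 9096 other genes above TPM 1 in at least 10 cells reached that value. The median rho of those pairs was 0.04, and 61.5% were above 0. Gpihbp1 and Kcne3 were the closest pair with a rho of 0.67, which lay between 0.51 and 0.78 within the 4 first title numbers (11 to 14 cells each). Gpihbp1 with Upp1 (0.54), Cav1 with Upp1 (0.54) and Kcne3 with Upp1 (0.53) followed. The weakest pairs were Igfbp3 with Adm (0.05), with Robo4 (0.17) and with Kcne3 (0.21). Several pairs fell below 0 within a first title number. Igfbp3 with Robo4 ran from -0.51 to 0.42, Igfbp3 with Adm from -0.41 to 0.17 and Cav1 with Robo4 from -0.28 to 0.59. The genes were picked from these cells, so the count is set beside the background without a reading.

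Each gene was next compared with the mean log2(TPM + 1) of the other 7. Gpihbp1 had the highest rho, 0.70, and it was between 0.47 and 0.84 within the first title numbers. Upp1 had 0.65, Kcne3 and Cav1 had 0.61 each, Sparcl1 0.57 and Adm 0.50. Robo4 (0.45) and Igfbp3 (0.41) were the least tied to the rest. For Robo4 the rho was -0.17 within 1 of the first title numbers and 0.83 within another, so its place in the group varied most. These points share the library of their cell, so the count of expressed genes per cell was used as a covariate. The median of the 28 partial rho values given this count was 0.37, and 28 of 28 stayed above 0.

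**Figure D2:**
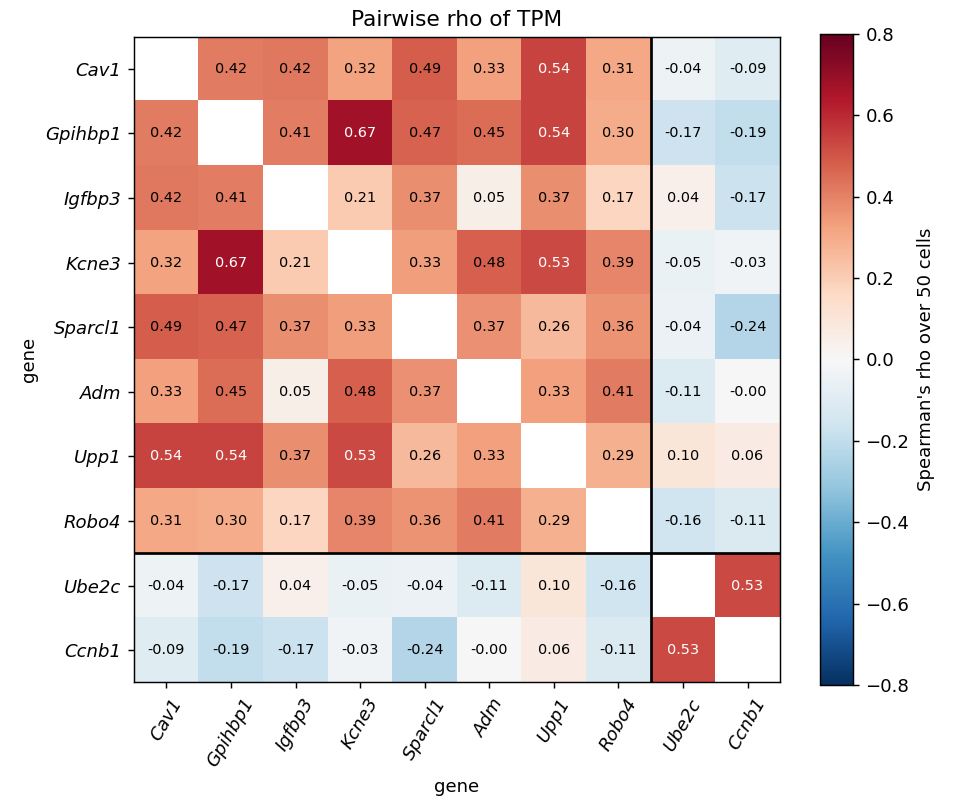
Spearman's rho of TPM over 50 cells for each pair of the 8 endothelial genes, Ube2c and Ccnb1, with colour from blue (negative) through white to red (positive). The block of 28 endothelial pairs is positive throughout, from 0.05 to 0.67, and the 16 pairings with Ube2c and Ccnb1 lie between -0.24 and 0.10.

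Joint counts followed how frequent each gene was more than the order of rho. Cav1 and Kcne3 shared 38 cells, with 0 cells having Cav1 without Kcne3, at a rho of 0.32. Cav1 and Upp1 were above TPM 1 together in 38 cells, and 0 cells had Cav1 without Upp1, at a rho of 0.54. Of the 26 cells with Adm, 26 also had Kcne3, Gpihbp1 and Upp1, and of the 18 cells with Sparcl1, 18 had Gpihbp1, Kcne3, Upp1 and Robo4. Gpihbp1, Kcne3 and Upp1 were present in 47 or 48 of the 50 cells, so such overlaps leave little room to differ. Igfbp3 and Adm were above TPM 1 together in 17 cells and apart in 26 (17 with Igfbp3 alone and 9 with Adm alone).

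A median of 6 of the 8 genes was above TPM 1 in a cell. All 8 were found in 10 cells (20%, exact 95% interval 10.0% to 33.7%), 6 or more in 32 cells (64%, 49.2% to 77.1%) and 4 or more in 46 (92%, 80.8% to 97.8%). No cell had fewer than 2. The exact 95% interval for 0 of 50 reaches 7.11%, and the limit of 3 counts allows 6%. Much of this rests on low values. With TPM above 10 asked for, the median was 5 genes, 22 cells (44%) had 6 or more, 12 cells had at most 2 and 2 cells had none. The first title numbers had medians of 6 or 7 genes at TPM above 1.

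The cells with all 8 genes above 10 TPM were 6 in number and came from all 4 first title numbers. Cell 1-6 had 976 TPM of Cav1, 1303 of Gpihbp1, 515 of Igfbp3, 452 of Kcne3, 385 of Sparcl1, 180 of Adm, 1000 of Upp1 and 97.3 of Robo4. Cell 4-3 had 2388 TPM of Gpihbp1, 2376 of Kcne3 and the highest Robo4 of all cells. Cell 2-2 had the highest Cav1 and the highest Igfbp3 of all cells, but Kcne3 at only 70.3 TPM. These 6 cells had between 5918 and 7046 genes above TPM 1, close to the median of 6224 over all cells.

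At the other end, cells 4-12 and 4-6 had none of the 8 above 10 TPM. The 8 genes summed to 5.05 TPM in cell 4-12, which had 6077 genes above TPM 1, and to 16.9 TPM in cell 4-6. Cell 4-6 stood apart from all others with 2400 genes, and without it the median pair rho and the other results kept within the limits used here. Among the 12 cells with at most 2 of the genes above 10 TPM, the gene that remained differed. Cell 3-13 had 354 TPM of Cav1 with Gpihbp1 at 0, cell 3-15 had 505 TPM of Gpihbp1 and 468 of Kcne3, and cell 4-4 had 218 TPM of Upp1 alone. The number of genes above TPM 1 had a rho of -0.14 with the mean of the 8 genes. Its part in the result was not tested beyond the partial rho given above.

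Ube2c and Ccnb1 themselves had a rho of 0.53. Their highest values, 3137 TPM of Ube2c and 1734 TPM of Ccnb1, were both in cell 1-2. Ube2c was above TPM 1 in 28 cells and Ccnb1 in 25. They were above TPM 1 together in 19 cells, and 16 cells had neither. Many of the positive values were low, since only 10 cells had Ube2c and 13 had Ccnb1 above 100 TPM.

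Of the 8 genes, Gpihbp1 had the lowest rho with the mean log2(TPM + 1) of Ube2c and Ccnb1, -0.21, and it was negative within each first title number, from -0.31 to -0.12. Sparcl1 followed with -0.19, Robo4 had -0.11, and Cav1 and Igfbp3 had -0.10 each. Adm (0.01), Kcne3 (0.02) and Upp1 (0.10) were not below 0. The single values were unstable, since within the first title numbers Adm ran from -0.57 to 0.44, Igfbp3 from -0.36 to 0.28, Upp1 from -0.23 to 0.38 and Sparcl1 from -0.37 to 0.04. Without number 3 the rho of Adm was -0.19 and that of Kcne3 -0.04, and without number 4 that of Upp1 was -0.006. Pearson's r of log2(TPM + 1) was -0.09 for Kcne3 and -0.01 for Upp1. Of the 8, 0 reached -0.3, which 1.32% of the 9096 other genes did. Given the number of genes per cell 0 of the 8 did so, against 2.33%. Taken singly, the lowest of the 16 pairings was Sparcl1 with Ccnb1 (-0.24) and the highest was Upp1 with Ube2c (0.10). The rank correlation between the mean of the 8 and that of Ube2c and Ccnb1 was -0.12, and it was between -0.28 and -0.09 within the first title numbers. With 1 such number left out in turn it ran from -0.16 to -0.05, and Pearson's r between both means was -0.21. In sparse values such weak correlations are no finding in either direction.

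A plot of both means shows how the cells lay. The 16 cells with neither Ube2c nor Ccnb1 above TPM 1 covered the whole span of the 8-gene mean, from 0.50 to 8.85 on the log2 scale. The 9 cells with both above 100 TPM lay between 1.63 and 5.61, and 17 cells were higher than any of them. Those 17 included cells 2-15 (7.85), 3-1 (7.20) and 1-9 (6.87), which had Ccnb1 but not Ube2c above 100 TPM. The level of 100 TPM was chosen after the values were seen. Of the 6 cells with all 8 genes above 10 TPM, 5 had neither division gene above TPM 1, and the sixth, cell 3-5, had Ube2c at 54.4 TPM and Ccnb1 at 0.63.

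**Figure D3:**
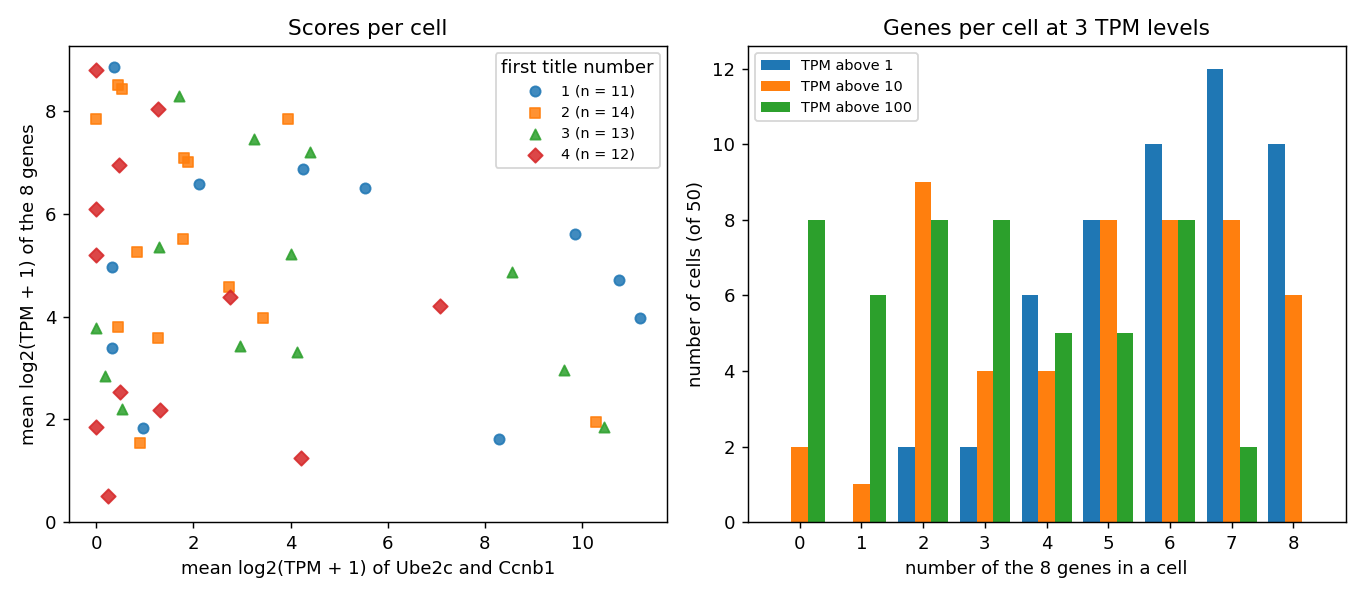
Left, mean log2(TPM + 1) of the 8 endothelial genes against that of Ube2c and Ccnb1 for each of 50 cells, with symbols for the first title number. Right, number of cells by how many of the 8 genes lay above TPM 1, 10 or 100. Cells with both Ube2c and Ccnb1 above 100 TPM reach 5.61 on the left axis, while cells with neither above TPM 1 run from 0.50 to 8.85.

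The 9 cells high in both division genes had between 2 and 7 of the 8 above 10 TPM, with a median of 4, and the 36 cells with neither above 100 TPM had a median of 5. The median of each of the 8 genes was lower in the 9 cells than in the 36. For Sparcl1 (0.14 against 0.23 TPM) and Adm (0 against 0.79 TPM) both medians lay below TPM 1. Igfbp3 had 1.31 against 4.26 TPM and Robo4 18.9 against 30.5 TPM. The 4 cells with Ccnb1 alone above 100 TPM, described below, are in neither class. Medians were 1.52 against 40.8 TPM for Cav1, 30 against 217 for Kcne3, 43.1 against 203 for Gpihbp1 and 113 against 277 for Upp1. The ranges overlapped for each of the 8 genes. Upp1 was above 10 TPM in 8 of these 9 cells and Gpihbp1 in 6. Kcne3 and Robo4 were above 10 TPM in 5 of 9 each, and Cav1 and Adm in 4 each. Igfbp3 was above 10 TPM in 3 and at most 69.0 TPM, and Sparcl1 in 1. In the 36 cells the counts above 10 TPM were 31 for Upp1, 29 for Gpihbp1, 26 each for Kcne3 and Robo4 and 21 for Cav1. They were 14 for Adm and 16 each for Igfbp3 and Sparcl1. Cell 1-8, with 1344 TPM of Ube2c and 630 of Ccnb1, had 7 of the 8 above 10 TPM, among them Kcne3 at 567 TPM. Cell 1-2, with the most Ube2c and Ccnb1, still had 1034 TPM of Cav1, while its Gpihbp1 was 1.24 TPM. Cell 3-8, with 1670 TPM of Ube2c, had only Upp1 (149 TPM) and Adm (11.4 TPM) above 10. The 9 cells had 6390 to 8615 genes above TPM 1, all above the median of 6224.

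A further 4 cells had Ccnb1 above 100 TPM with Ube2c at most 2.2 TPM (cells 1-9, 2-15, 3-1 and 3-3). They had 5 to 7 of the 8 above 10 TPM, against a median of 5 over all cells. Their 8-gene sums were 5285, 4504, 6549 and 173 TPM in that order, so cell 3-3 was below the median of 1112 TPM over all cells and the other 3 were above it. In the same order Gpihbp1 was 636, 1345, 342 and 39.9 TPM. Kcne3 was 3348, 1472, 1819 and 10.0 TPM, and Adm was 263, 720, 299 and 28.6 TPM. Igfbp3 did not exceed 3.99 TPM in any of them. Cell 4-6 was the only cell with Ube2c above 100 TPM (340) and Ccnb1 at or below it, and it is the cell with the fewest genes.

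To see which other genes went with the 8, all 9096 other genes above TPM 1 in at least 10 cells were ranked by rho with the mean of the 8. A total of 531 genes had a rho of 0.3 or more (5.84%) and 417 had -0.3 or less (4.58%). The latter count was 677 without first title number 4 and 666 without the 7 cells with fewer than 5000 genes. By partial rho given the number of genes per cell these shares were 7.35% and 3.89%. The median rho was -0.01. Flt1, a VEGF receptor of endothelial cells, was the most alike of all with a rho of 0.79, at 0 to 413 TPM over cells. Sparc, the secreted matrix protein after which the family of Sparcl1 is named, came next with 0.72 at a median of 2000 TPM. Tax1bp3 (0.68), Ermp1 (0.65) and Col4a1 (0.65), a chain of basement membrane collagen, followed, and then Fkbp1a (0.62), Map4k5, Anxa2, Tmem204 and Rhoc (0.61 each). Each of these 10 was positive within all 4 first title numbers.

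The 10 genes at the other end were 2310061I04Rik (-0.62), Mrpl42 (-0.61), Tspan32 (-0.61), Ifitm1 (-0.58), Exosc5 (-0.56), Pdcd4, Arhgap6 and Nfe2 (-0.55 each), Nipsnap1 (-0.53) and Pdik1l (-0.52). Nfe2 is a transcription factor of megakaryocytes and erythroid cells, Tspan32 is a tetraspanin of blood cells, and Ifitm1 is an interferon-induced membrane protein that reached 15251 TPM. Nfe2 was above TPM 1 in 18 cells and Tspan32 in 12. No gene of late cell division was among these 10. Runx1, the induced factor, had a rho of -0.24 with the mean of the 8 genes and 0.33 with that of Ube2c and Ccnb1. Its TPM does not tell RNA of the cassette from that of the cell's own gene.

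Of 36 endothelial markers listed, 35 could be compared, and 15 of them had a rho of 0.3 or more (5.84% of all genes) and 0 had -0.3 or less (4.58%), with a median of 0.25. The mean of the list had a rho of 0.56 with the 8-gene mean, but it ran from -0.41 to 0.71 within the first title numbers. Besides Flt1, the highest were Cdh5 (0.56) and Pecam1 (0.55), both proteins of endothelial junctions, and Ecscr (0.49). The lowest was Gja4 (-0.20), a connexin of arteries, and Tek, an angiopoietin receptor, and Mmrn1 had -0.06 each. Genes linked to sprouting tip cells had a median of 0.39, with 6 of 10 at 0.3 or more, among them Nid2 (0.55), Mcam (0.55) and Dll4 (0.48), and with Cd34 (0.11) and Pdgfb (0.12) lowest. Col4a1 was also on that list. Several blood and megakaryocyte markers were frequent, such as Lcp1 in 49 cells, Laptm5 in 48, Fcer1g in 41, Itgb3 in 46 and Itga2b in 40. The summed level of the blood list was 21.1 to 7423 TPM over cells with a median of 959 TPM, while 4 of its genes, Ptprc, Myb, Cd48 and Spn, were at 0 in every cell. Of the mesenchymal list 8 of 14 genes had a row, with a summed level of 0 to 84.2 TPM over cells, and Pdgfrb, Col3a1 and Postn were listed at 0 in all 50 cells. The part of these markers in the result was not tested.

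Partners of the 8 genes were measured from lists of their pathways. Of the caveola genes, Cav2, which assembles with Cav1, had a rho of 0.46 with the mean of the 8 at a median of 102 TPM, Prkcdbp (cavin-3) had 0.40 and Ehd4 0.39. Ehd2 (0.28), Ptrf (cavin-1, 0.25) and Pacsin2 (0.17) were lower, and Sdpr (cavin-2) was listed at 0 in all 50 cells. The receptor for adrenomedullin is made of Calcrl with Ramp2 or Ramp3. Calcrl and Ramp2 were above TPM 1 in 50 of 50 cells, at medians of 63.7 and 1317 TPM, with rho values of 0.10 and 0.12. Ramp3 was in 36 cells and had a rho of 0.42.

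Of the Robo and Slit genes, several were rare. Robo1 did not exceed 0.13 TPM in any cell, Robo2 was above TPM 1 in 1 cell and Slit2 in 5. Unc5b, a partner of Robo4, was in 21 cells with a rho of 0.25, and Srgap1 (0.26) and Srgap2 (0.20) were like it. The mean of the list had a rho of 0.40 with the 8-gene mean, and it was positive within each first title number, from 0.11 to 0.66. Lpl, the lipase that Gpihbp1 carries, was above TPM 1 in 18 cells and had a rho of 0.02. Vldlr (0.44) and Pparg (0.36) were the highest of the lipid genes, while Lmf1 (-0.04), Fabp5 (0.17), Slc27a3 (-0.24) and Slc27a4 (-0.06) were lower, and Cd36, Fabp4 and Angptl4 were in 2 cells each. The mean of the lipid list had a rho of 0.28. Of the genes for channel subunits that Kcne3 or its family regulates, the single row, Kcnq1, was above TPM 1 in 2 cells.

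In the insulin-like growth factor list 0 of 9 genes were at 0.3 or more (5.84% of all genes) and 0 at -0.3 or less (4.58%). Igf2 had a median of 1043 TPM (50 cells, rho 0.23), Igfbp4 770 TPM (50 cells, 0.10) and Igf1 27.1 TPM (39 cells, -0.26). Igf2r (0.19), Igfbp7 (0.14), Igfbp2 (0.11), Igf1r (0.11), Igfbp5 (0.09) and Insr (-0.13) lay between them. In the pyrimidine list around Upp1, 0 of 10 genes were at 0.3 or more and 1 was at -0.3 or less (Umps, which makes UMP anew, -0.33), which is near the same shares of all genes. The salvage kinases Uck1 (-0.03), Uck2 (0.05), Uckl1 (-0.07), Tk1 (-0.10) and Dck (-0.04) lay between -0.10 and 0.05. Tymp (0.17), Cda (0.15), Cad (-0.15) and Dhodh (-0.15) were further from 0. Beside Sparc, Fstl1 of the SPARC family had 0.20.

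**Figure D4:**
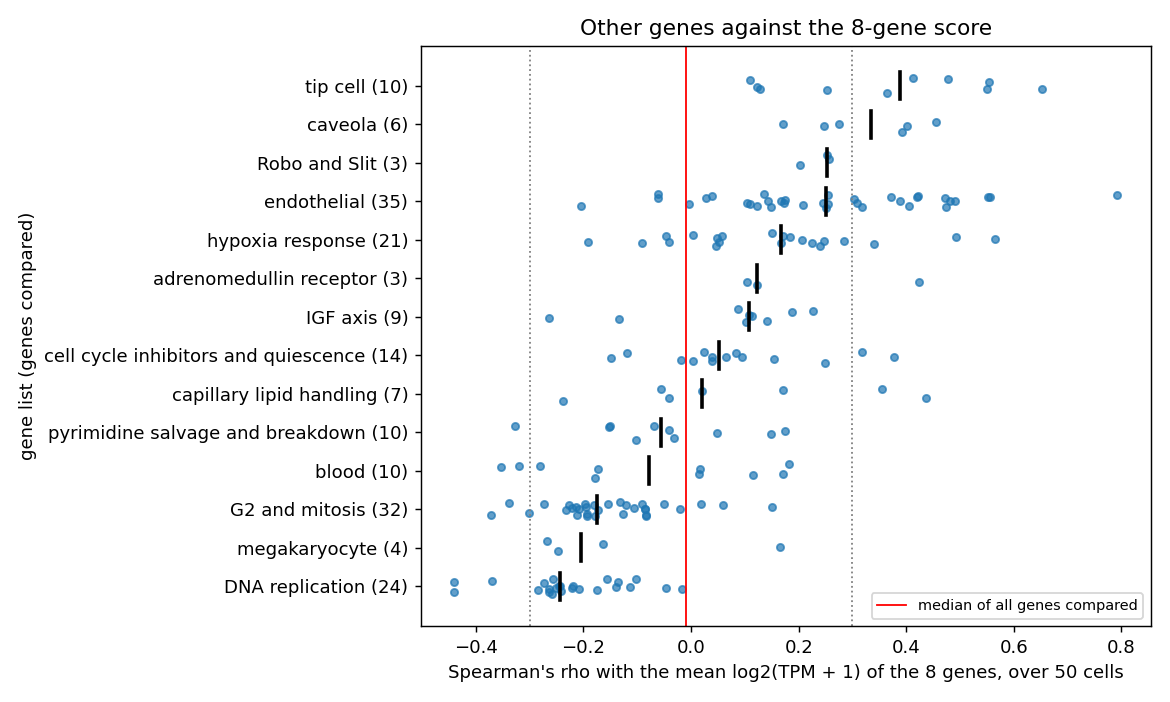
Spearman's rho of each listed gene with the mean log2(TPM + 1) of the 8 endothelial genes over 50 cells, 1 point a gene, by list (number of genes compared in parentheses). Black bars are list medians, the red line is the median of all 9096 genes (-0.01) and dotted lines mark -0.3 and 0.3. The medians of the tip cell, caveola and endothelial lists lie to the right, with 4 of 35 endothelial genes below 0. DNA replication genes all lie left of 0.

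Lists of the cell cycle lay below the median of all genes (-0.01), beyond the chosen Ube2c and Ccnb1. Of 32 genes of G2 and mitosis, Ube2c and Ccnb1 among them, 29 had a rho under 0 with the 8-gene mean, with a median of -0.18, and 3 of 32 reached -0.3 (9096 genes: 4.58%). Those 3 were Ccna2 (-0.37), Aurka (-0.34) and Cenpe (-0.30). Prc1 (0.15) and Plk1 (0.06) were the highest. DNA replication genes were lower still, with 24 of 24 under 0, a median of -0.24, and 3 at -0.3 or less, which were Cdc6 (-0.44), Chaf1b (-0.44) and Pcna (-0.37). Hells (-0.02) and Mcm7 (-0.05) were the highest. Genes of 1 list can go together over the same 50 cells, so such counts are not separate observations. The mean of the replication list went with the genes above TPM 1 per cell (rho 0.69) and against the 8-gene mean (rho -0.34). Given the number of genes the latter was -0.35. The mean of the 35 G2 and mitosis genes other than Ube2c and Ccnb1 had a rho of -0.23 with the 8-gene mean, and -0.18 given the number of genes.

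Genes that hold the cell cycle back had a median rho of 0.05 over 14 genes (all genes: -0.01), and 11 of the 14 were above 0. At 0.3 or more were 2 of them (5.84% of all genes), Cdkn1b (0.38), the inhibitor p27, and Gadd45a (0.32). Cdkn2d (-0.15) and Foxo3 (-0.12) were lowest, and the mean of the list had a rho of 0.13, or 0.21 given the number of genes per cell. Cdkn1a, the inhibitor p21, had a median of 779 TPM, was above TPM 1 in 50 of 50 cells and had a rho of 0.00. Blood genes had a median of -0.08 over 10, with Fcer1g (-0.35) and Gfi1 (-0.32) lowest and Cd53 (0.18) and Lcp1 (0.17) highest. The mean of the blood list had a rho of -0.30 with the 8-gene mean, from -0.59 to -0.05 within the first title numbers. Of 4 megakaryocyte genes, Itga2b (-0.27) was lowest and Itgb3 (0.17) and Pf4 (-0.16) highest. The megakaryocyte mean had a rho of -0.33, from -0.66 to -0.16 within them, and the part of these markers in the result was not tested. Among 21 genes of the hypoxia response, to which Adm belongs, the median was 0.17 and 3 were at 0.3 or more, beside the same 5.84% of all genes. These were Epas1 (0.56), the hypoxia factor of endothelium, the glucose transporter Slc2a1 (0.49) and Pfkfb3 (0.34), while Higd1a (-0.19) and Ldha (-0.09) were lowest and Vegfa had -0.05. No erythroid gene was above TPM 1 in 10 cells, and the single pluripotency row, Klf4, had a rho of -0.08.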

How the data were processed

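Amplified cDNA of single sorted cells that passed a qPCR check was sequenced by the authors, and reads were aligned to mm10 with HISAT2 2.1.0, with TPM estimated by StringTie 1.3.4 (SAMtools 0.1.19 is also named in the submitters' processing notes). The deposited TPM table holds 11879 rows and 50 cells, with column sums of 942975 to 970894. How its rows were chosen is not given in the sources used here. TPM keeps no read depth, so the precision of single values is unknown and no cell could be thinned. Cells had 2400 to 8615 genes above TPM 1.

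The genes and lists were chosen with earlier results of these data known, and the 100 TPM level after values were seen. Python 3.11.15, SciPy 1.17.1, NumPy 2.4.6 and pandas 2.3.3 were used. Spearman's rho of TPM, scores as means of log2(TPM + 1), and partial rho given the genes above TPM 1 per cell were computed. A rho of 0.3 or more, or -0.3 or less, was called, over genes above TPM 1 in at least 10 cells. Clopper-Pearson 95% intervals were used. The rho calculation was tested on simulated data with planted genes. The named genes were the 8, Ube2c, Ccnb1, the 10 highest and 10 lowest by rho, pathway partners above TPM 1 in at least 10 cells, and the 2 to 4 highest and lowest of the other lists, of which 1 is not reported here. Others, such as Runx1, Cdkn1a, Vegfa and genes in under 10 cells, were added after their values were seen. Alternatives were other TPM levels, cells left out, a rescaling without 84 ribosomal protein rows, Pearson's r, other scores, calls and filters. No cell was left out of the main values, and cells were not clustered. Coordinates are from GENCODE M21, and promoter sequences from RefSeq on GRCm38.p6.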

Additional observations from a re-analysis of the deposited data

How the results depend on the processing

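A share was taken as kept within its exact interval, a rho or a median number of genes within the SD of the values of the 4 first title numbers, and a count of genes within 1.5 times. Such an SD is wide where a rho is unstable, as with 0.44 for Adm against Ube2c and Ccnb1. Keeping within it is therefore a weak check. At TPM above 0, 5 and 10 the median number of the 8 genes per cell was 7, 5 and 5, the share of cells with at least 4 was 98%, 72% and 68%, and the share with at least 6 was 86%, 48% and 44%. The median share of cells over the 8 genes was 92% at TPM above 0 against 77%. Raising or lowering the level changes such counts by construction. Without first title numbers in turn, the median number was 6 to 7, the median pair rho 0.32 to 0.45, the rho of both means -0.16 to -0.05, the genes at 0.3 or more 521 to 700 and those at -0.3 or less 448 to 677, the highest without number 4. Without the 7 cells with fewer than 5000 genes 666 genes were at -0.3 or less. With 0.4 asked for, 191 and 105 genes passed, by construction. Pearson's r of log2(TPM + 1) between both means was -0.21, and the other G2 and mitosis genes in place of Ube2c and Ccnb1 gave -0.23. The cause of these changes was not tested. No main rho changed sign under any alternative, but single-gene values near 0 did, and with the other mitosis genes the 3 that were above 0 all fell below it (Upp1 -0.24, Kcne3 -0.19, Adm -0.12). Rescaling, the partial rho, a pseudocount of 0.1, no filter on low genes and scores without each gene in turn (-0.14 to -0.08) kept the main results within these limits. Leaving out cell 4-6, chosen after seeing the data, did so too. No paired analysis was possible because the cells form 1 group only.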
